A study of Mus musculus with 11 samples.

Results

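Dendritic cells and plasmacytoid dendritic cells were followed in the lacrimal gland through 10 genes that mark them, taken as a list by name from the 19058 genes of the main count table. The list holds *Siglech*, *Bst2* and *Tcf4* for plasmacytoid dendritic cells, *Xcr1*, *Clec9a*, *Batf3* and *Irf8* for conventional type 1 dendritic cells, and *Flt3*, *Zbtb46* and *Itgax* for dendritic cells in general. All 10 were present in the table and all 10 passed the filter on low counts that left 13937 genes to test. That filter reads the WT mice alone, in which *Xcr1*, with a sum of 44 counts, came closest to its limit of 30. RNA was sequenced from whole lacrimal glands of male mice of the NOD strain, which develops spontaneous inflammation of this gland. There were 3 WT mice, 5 *Tlr7* KO mice and 3 *Ifnar1* KO mice, with 1 library per mouse. Per the study's methods, 1 further *Ifnar1* KO mouse was left out by the authors because its expression profile and gland inflammation resembled WT, so the *Ifnar1* KO group was chosen in part by an outcome that moves with leukocyte genes, which bears on every *Ifnar1* KO value given here. WT and *Tlr7* KO glands were collected at 20 to 22 weeks of age, and the age of the *Ifnar1* KO mice was not given in the sources used here. The *Tlr7* KO mice carry a deletion of 2 bases made by gene editing on the NOD background, in a line bred from a single mutant allele, and lack the endosomal receptor for single-stranded RNA. The *Ifnar1* KO mice carry the em16 allele on both chromosomes and lack 1 of the chains of the type I interferon receptor. Both alleles are carried by every cell of the mouse, so the comparisons ask how the dendritic cell genes of the whole gland differ when TLR7 or type I interferon signalling is absent throughout.

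Dendritic cells take up antigen in tissues and present it to T cells. Plasmacytoid dendritic cells sense nucleic acids through TLR7 and TLR9 and are known for releasing large amounts of type I interferon, which acts on nearly all cells through IFNAR and switches on a common set of interferon-stimulated genes. Conventional type 1 dendritic cells cross-present antigen from dead cells to CD8 T cells. Few of the listed genes belong to dendritic cells alone. IRF8 is also made by B cells and macrophages, CD11c (*Itgax*) by macrophages and some B cells, TCF4 by many cell types including mesenchymal and endothelial cells, and BST2 by most cells exposed to interferon.

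The libraries held 20512315 to 28814250 counts assigned to genes, with a median of 26767872. A count of 3 corresponded to 0.0820 to 0.158 CPM (counts scaled to a common library size), which is the scale on which the rarest members have to be read, and this floor covers counting error only. WT replicate 2 (WT 2) stood apart from the other WT mice. Over all genes tested, its log2 CPM correlated with those of the other WT mice at a mean r of 0.941 and with those of the *Tlr7* KO mice at 0.946, a description of libraries that share strain, tissue and gene set. *Ptprc*, which encodes the leukocyte surface phosphatase CD45, was at 66.2 CPM in WT 1, 18.8 in WT 2 and 56.9 in WT 3. Results against WT are therefore given with and without WT 2. *Tlr7* transcripts were still present in the *Tlr7* KO glands, at 0.494 to 0.949 CPM against 1.52 to 2.94 in WT, and *Ifnar1* transcripts in the *Ifnar1* KO glands, at 8.34 to 9.63 CPM against 10.5 to 15.1, so the transcript level of neither gene serves as a check of its genotype.

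All 10 members had lower fitted levels in *Tlr7* KO than in WT glands and all 10 had lower fitted levels in *Ifnar1* KO than in WT glands. In edgeR's quasi-likelihood test, 4 of the 10 (*Batf3*, *Irf8*, *Flt3* and *Itgax*) passed as lower in *Tlr7* KO (adjusted p below 0.05), where 32.7% of all genes tested passed and 17.4% passed as lower. In *Ifnar1* KO, 2 of the 10 (*Bst2* and *Flt3*) passed as lower, where 19.2% of all genes passed and 12.4% passed as lower. Without WT 2, 9 of the 10 passed as lower in each knockout, where 47.8% of all genes passed and 24.9% passed as lower in *Tlr7* KO, and 33.5% passed and 20.2% passed as lower in *Ifnar1* KO. Leaving out WT 1 or WT 3 instead had the opposite effect, with 1 of the 10 as lower in *Tlr7* KO in either case, where 2726 and 2600 of the 13937 genes still passed, and 0 in *Ifnar1* KO, where 13 and 121 genes passed. Between the knockouts a single member passed, *Bst2*, which was 4.04-fold higher in *Tlr7* KO than in *Ifnar1* KO glands, in a comparison in which 1.79% of all genes passed and 0.926% passed as higher in *Tlr7* KO. In RNA from a whole gland, fewer dendritic cells and less of a transcript per cell cannot be told apart.

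**Figure D1:**
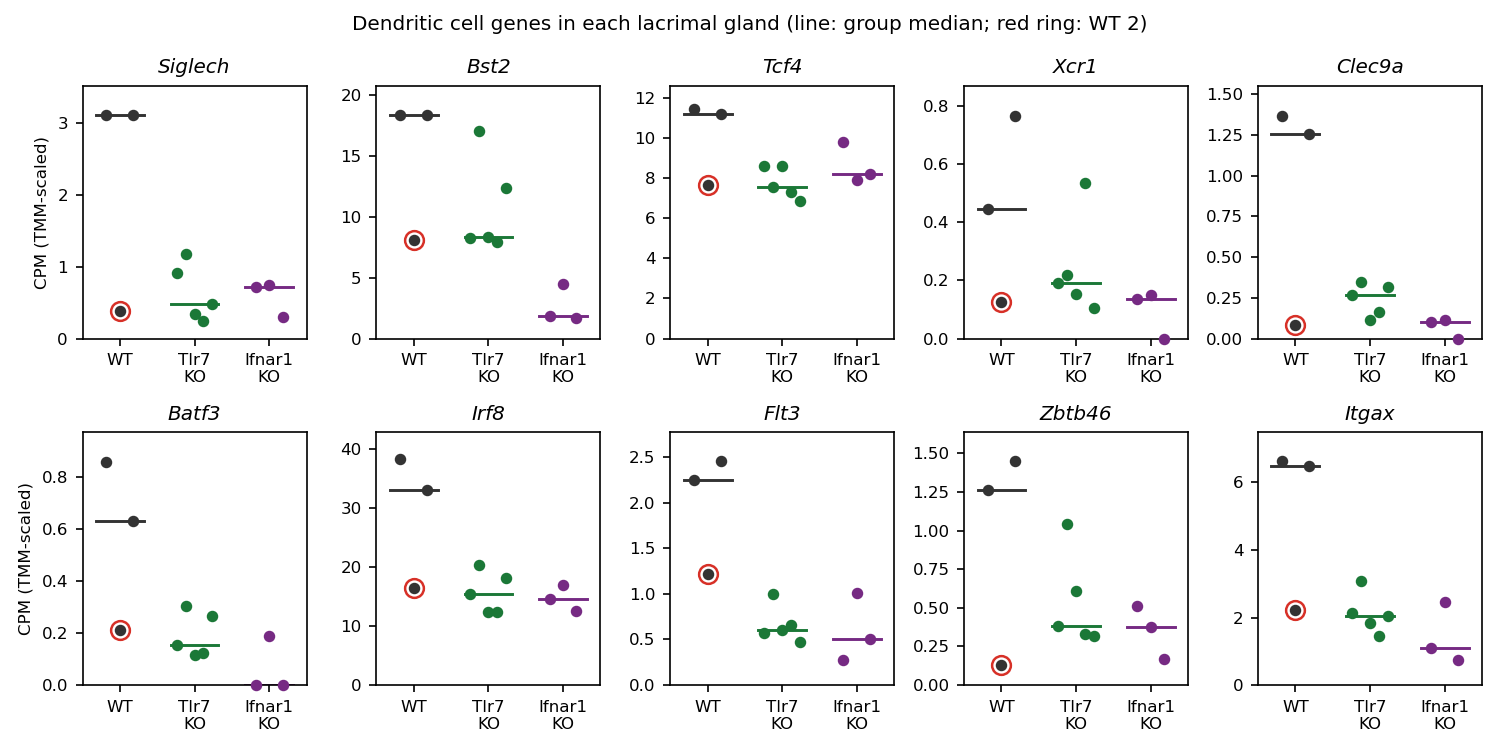
CPM of each of the 10 genes (vertical axis, linear, from 0) in each of the 11 mice, by genotype; lines are group medians and the red ring marks WT 2. WT 1 and WT 3 lie above every knockout mouse for 9 of the 10 genes, *Xcr1* being the exception (25.1% of all genes tested), whereas WT 2 is the lowest WT mouse for all 10 (46.2%).

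Per kilobase of exon, *Bst2* was the most abundant member in WT glands at 16.5 ± 6.57 CPM per kb (SD, n = 3), followed by *Irf8* at 4.15 ± 1.62 and *Itgax* at 1.07 ± 0.521. The WT ranges of these 3 genes did not overlap one another. *Siglech* followed at 0.651 ± 0.467, then *Tcf4* at 0.368 ± 0.0774, *Batf3* at 0.354 ± 0.205, *Flt3* at 0.320 ± 0.107 and *Clec9a* at 0.274 ± 0.216 CPM per kb. *Zbtb46* at 0.111 ± 0.0842 and *Xcr1* at 0.100 ± 0.0717 CPM per kb were the lowest. From *Itgax* downward, neighbours in this order had overlapping ranges in the WT mice and did not differ beyond their spread. The per-length level of *Tcf4* rests on 27382 bases of merged exons, the longest of the members, since its many isoforms start at different exons.

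Among the plasmacytoid genes, *Siglech*, which encodes a surface lectin that is the usual marker of mouse plasmacytoid dendritic cells, was at 3.11 CPM in WT 1, 0.379 in WT 2 and 3.11 in WT 3. It was at 0.918, 1.17, 0.342, 0.247 and 0.475 CPM in *Tlr7* KO 1 to 5 and at 0.715, 0.747 and 0.293 CPM in *Ifnar1* KO 1 to 3. WT 1 and WT 3 were thus above all 8 knockout mice, while WT 2 lay inside the range of both knockout groups. The log2 fold change was -1.81 (SE 0.64, adjusted p = 0.0555) in *Tlr7* KO and -1.94 (SE 0.74, adjusted p = 0.100) in *Ifnar1* KO, and neither passed. With WT 2 left out, *Siglech* was 4.91-fold lower in *Tlr7* KO (adjusted p = 0.00311) and 5.35-fold lower in *Ifnar1* KO (adjusted p = 0.00630).

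*Tcf4*, which encodes the transcription factor E2-2 needed to form and maintain plasmacytoid dendritic cells, had the smallest fold changes against WT of the members. Its levels were 11.4, 7.63 and 11.2 CPM in WT 1 to 3, 8.61, 7.56, 8.58, 7.29 and 6.86 CPM in *Tlr7* KO 1 to 5, and 9.80, 7.88 and 8.20 CPM in *Ifnar1* KO 1 to 3. WT 1 and WT 3 were again the highest mice and WT 2 was within the range of the *Tlr7* KO mice. Its log2 fold change was -0.38 (SE 0.15, adjusted p = 0.0725) in *Tlr7* KO and -0.25 (SE 0.19, adjusted p = 0.373) in *Ifnar1* KO. Leaving out WT 2 gave -0.54 in *Tlr7* KO (SE 0.10, adjusted p = 0.00295) and -0.42 in *Ifnar1* KO (SE 0.13, adjusted p = 0.0512), so *Tcf4* was the 1 member that did not pass in that *Ifnar1* KO comparison.

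*Bst2* encodes tetherin, a membrane protein that holds budding viruses on the cell surface, which in untreated mice is found mainly on plasmacytoid dendritic cells and plasma cells and which interferon induces on other cells. It was at 18.3 CPM in WT 1, 8.05 in WT 2 and 18.3 in WT 3, and at 8.26, 17.0, 8.32, 7.91 and 12.4 CPM in *Tlr7* KO 1 to 5. In *Ifnar1* KO 1 to 3 it was at 1.84, 4.44 and 1.67 CPM. All 3 *Ifnar1* KO mice were below every other mouse, whereas *Tlr7* KO 2 nearly reached the highest WT mice and WT 2 sat among the lower *Tlr7* KO mice. *Bst2* did not pass in *Tlr7* KO against WT (log2 fold change -0.48, SE 0.32, adjusted p = 0.275) and was 5.73-fold lower in *Ifnar1* KO than in WT (log2 fold change -2.52, SE 0.46, adjusted p = 0.0230). Leaving out WT 2 gave 1.71-fold lower in *Tlr7* KO (adjusted p = 0.0407) and 7.05-fold lower in *Ifnar1* KO (adjusted p = 0.00482). The *Ifnar1* KO call was lost when WT 1, WT 3, *Ifnar1* KO 1 or *Ifnar1* KO 3 was left out (adjusted p 0.0650 to 0.0832).

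The stretch before the start site of *Bst2* is shown because this gene separated the knockouts, and those of *Irf8* and *Siglech* because they are members of the same list that did not. The 250 bases before the annotated start were taken from a table of RefSeq promoters on GRCm38.p6, in which 9 of the 10 members were matched, *Tcf4* being the exception. In *Bst2* (chr8:71537473-71537722, minus strand) the capitals mark the interferon-stimulated response element core, searched as GAAA, any 2 bases and GAAA again. In *Irf8* (chr8:120736108-120736357, plus strand, the upstream of its 2 annotated starts) and *Siglech* (chr7:55767934-55768183, plus strand) they mark the gamma-activated site, searched as TTCNNNGAA.
Bst2: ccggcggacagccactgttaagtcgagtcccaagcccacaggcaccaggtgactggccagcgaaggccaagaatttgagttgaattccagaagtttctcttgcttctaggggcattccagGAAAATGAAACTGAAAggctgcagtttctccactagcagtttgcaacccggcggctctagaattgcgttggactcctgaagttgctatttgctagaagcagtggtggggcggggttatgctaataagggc
Irf8: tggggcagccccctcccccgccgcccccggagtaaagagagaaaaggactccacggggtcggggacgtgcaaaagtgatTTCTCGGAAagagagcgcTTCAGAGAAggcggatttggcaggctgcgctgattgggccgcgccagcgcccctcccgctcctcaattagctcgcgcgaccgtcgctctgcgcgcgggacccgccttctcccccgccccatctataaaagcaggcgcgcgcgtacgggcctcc
Siglech: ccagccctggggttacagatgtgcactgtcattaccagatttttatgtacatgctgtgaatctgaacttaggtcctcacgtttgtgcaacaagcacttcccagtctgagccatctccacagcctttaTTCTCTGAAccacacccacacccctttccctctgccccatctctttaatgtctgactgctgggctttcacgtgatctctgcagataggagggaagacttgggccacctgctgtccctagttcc
Both strands were searched. The interferon-stimulated core was found in 1 of the 9 members, *Bst2*, as 2 matches that overlap each other in the run GAAAATGAAACTGAAA, which begins 130 bases before the start. It occurred in 2.98% of all 32851 promoter windows of this length, and in 5 of the 8 genes of the interferon-stimulated list described further on that had an entry. The gamma-activated site was found in 4 members, *Batf3*, *Bst2*, *Irf8* and *Siglech*, and in 7.02% of all windows, and in *Bst2* it overlaps the interferon-stimulated core. The AP-1 site TGANTCA, which reads the same on either strand, was found in *Itgax* and *Zbtb46* and in 6.75% of all windows. A match describes the letters only.

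**Figure D2:**
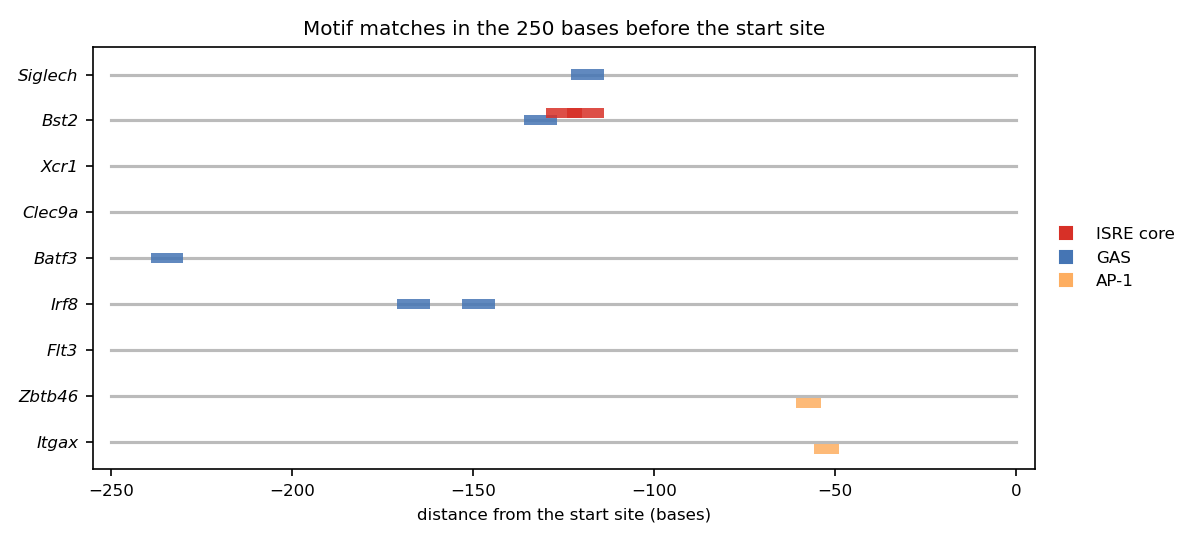
Positions of the 3 motifs in the 250 bases before the start site of the 9 members with a promoter entry (horizontal axis, bases from the start); each box is 1 match and overlapping matches appear darker. Only *Bst2* holds the interferon-stimulated core, between 130 and 115 bases before the start.

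Of the conventional type 1 genes, *Clec9a* showed the largest differences. It encodes DNGR-1, a receptor for the actin exposed by dead cells. It was at 1.37 CPM in WT 1, 0.0843 in WT 2 and 1.26 in WT 3, at 0.268, 0.348, 0.114, 0.165 and 0.317 CPM in *Tlr7* KO 1 to 5, and at 0.102, 0.112 and 0 CPM in *Ifnar1* KO 1 to 3. WT 1 and WT 3, with 40 and 46 counts, stood above all other mice, and WT 2 with 2 counts was below every *Tlr7* KO mouse. In the *Ifnar1* KO mice the counts were 3, 3 and 0, at the floor, and the *Tlr7* KO mice had 3 to 8 counts. The log2 fold change in *Tlr7* KO was -1.93 (SE 0.68, adjusted p = 0.0536), and -2.44 without WT 2 (SE 0.37, adjusted p = 0.000970). Against *Ifnar1* KO, the pooled counts of 88 and 6 gave a ratio of 13.1 for WT over *Ifnar1* KO (95% exact interval 5.79 to 36.7, for counting error only), and the adjusted p was 0.0576 with WT 2 and 0.00660 without it.

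*Xcr1*, which encodes the receptor for the chemokine XCL1 released by activated CD8 T cells and natural killer cells, had the lowest level of the members in WT. It was at 0.444, 0.126 and 0.765 CPM in WT 1 to 3, at 0.191, 0.217, 0.152, 0.535 and 0.106 CPM in *Tlr7* KO 1 to 5, and at 0.136, 0.149 and 0 CPM in *Ifnar1* KO 1 to 3. *Tlr7* KO 4 and WT 1 had 13 counts each, in the smaller library for WT 1, so *Tlr7* KO 4 was above WT 1 only after TMM scaling. On that scale this was the 1 member whose higher WT mice were not above all knockout mice. The log2 fold change was -0.91 (SE 0.62, adjusted p = 0.285) in *Tlr7* KO and -2.20 (SE 0.92, adjusted p = 0.125) in *Ifnar1* KO. When WT 2 was left out these became -1.32 (SE 0.54, adjusted p = 0.0732) and -2.61 (SE 0.76, adjusted p = 0.0406). *Xcr1* had 4, 4 and 0 counts in *Ifnar1* KO and was tested there because the filter reads WT counts, and filterByExpr left it out. It was the 1 member that still did not pass in *Tlr7* KO without WT 2. The pooled counts of 44 in WT and 8 in *Ifnar1* KO gave a ratio of 4.92 (95% exact interval 2.29 to 12.1, for counting error only).

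*Batf3*, the transcription factor on which the development of these cells depends, was at 0.855, 0.211 and 0.628 CPM in WT 1 to 3 and at 0.153, 0.304, 0.114, 0.124 and 0.264 CPM in *Tlr7* KO 1 to 5. In *Ifnar1* KO it was at 0, 0.187 and 0 CPM, from 0, 5 and 0 counts. WT 2 lay within the *Tlr7* KO range. It was above *Ifnar1* KO 2 only by library scaling, since each had 5 counts. *Batf3* was 3.0-fold lower in *Tlr7* KO than in WT (log2 fold change -1.59, SE 0.52, adjusted p = 0.0413), and 3.88-fold lower without WT 2 (adjusted p = 0.00533). In *Ifnar1* KO the log2 fold change was -3.13 (SE 1.07, adjusted p = 0.0776), and -3.51 without WT 2 (SE 0.97, adjusted p = 0.0349). The pooled counts of 53 and 5 gave a ratio of 9.47 (95% exact interval 3.81 to 30.4, for counting error only). *Batf3* and *Clec9a* were tested because the filter reads WT counts, the group in which they were high, and edgeR's filterByExpr left both out in both knockouts, so that 3 of the 8 members it tested passed in *Tlr7* KO. The call of *Batf3* in *Tlr7* KO rests on few counts, at most 25 in any mouse, and the adjusted p rose to 0.188 without WT 1 and to 0.117 without WT 3, and it was also lost when *Tlr7* KO 1, 3, 4 or 5 was left out (adjusted p 0.0558 to 0.0900). It was lost as well in DESeq2 (adjusted p = 0.0503), in the second count table (0.116) and with all 11 mice in 1 fit (0.0910).

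*Irf8*, a transcription factor of the interferon regulatory family that directs monocytes, B cells and both kinds of dendritic cell, was well above the floor in all mice. Its levels were 38.4, 16.4 and 33.0 CPM in WT 1 to 3, 15.4, 20.4, 12.3, 12.4 and 18.2 CPM in *Tlr7* KO 1 to 5, and 14.6, 17.0 and 12.6 CPM in *Ifnar1* KO 1 to 3. WT 2 was within the range of both knockout groups, and the *Ifnar1* KO range lay inside the *Tlr7* KO range. *Irf8* was 1.87-fold lower in *Tlr7* KO than in WT (log2 fold change -0.90, SE 0.26, adjusted p = 0.0266) and its log2 fold change in *Ifnar1* KO was -1.02 (SE 0.30, adjusted p = 0.0517). In the absence of WT 2 it was 2.28-fold lower in *Tlr7* KO (adjusted p = 0.00101) and 2.47-fold lower in *Ifnar1* KO (adjusted p = 0.00312). The *Tlr7* KO call was lost without WT 1 (adjusted p = 0.118), WT 3 (0.0934), or *Tlr7* KO 1, 3 or 4 (0.0585 to 0.0615).

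Of the genes shared by dendritic cells in general, *Flt3* separated the groups most clearly. It encodes the receptor for FLT3 ligand, the growth factor on which dendritic cells and their progenitors depend. *Flt3* was at 2.26, 1.22 and 2.46 CPM in WT 1 to 3, at 0.574, 1.0, 0.608, 0.659 and 0.475 CPM in *Tlr7* KO 1 to 5, and at 0.272, 1.01 and 0.502 CPM in *Ifnar1* KO 1 to 3. It was the 1 member for which WT 2 also lay above all *Tlr7* KO mice, among 30.8% of all genes whose groups did not overlap in that comparison. *Flt3* was 2.99-fold lower in *Tlr7* KO (log2 fold change -1.58, SE 0.31, adjusted p = 0.00562) and 3.40-fold lower in *Ifnar1* KO (log2 fold change -1.77, SE 0.51, adjusted p = 0.0489). Excluding WT 2 gave 3.54-fold (adjusted p = 0.000786) and 4.05-fold (adjusted p = 0.0216). The *Tlr7* KO call held whichever single mouse was left out. The *Ifnar1* KO call was lost on leaving out any mouse except WT 2 and *Ifnar1* KO 2 (adjusted p 0.121 to 0.149), and also with RLE size factors (0.0504) or library size alone (0.0571).

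*Itgax*, which encodes the integrin CD11c, was at 6.63, 2.23 and 6.5 CPM in WT 1 to 3, at 2.14, 3.09, 1.82, 1.44 and 2.06 CPM in *Tlr7* KO 1 to 5, and at 1.09, 2.47 and 0.753 CPM in *Ifnar1* KO 1 to 3. *Tlr7* KO 2 and *Ifnar1* KO 2 exceeded WT 2, and WT 1 and WT 3 were above all knockout mice. *Itgax* was 2.45-fold lower in *Tlr7* KO (log2 fold change -1.29, SE 0.35, adjusted p = 0.0205), a call lost without WT 1 (adjusted p = 0.0842) or WT 3 (0.0877). In *Ifnar1* KO the log2 fold change was -1.87 (SE 0.54, adjusted p = 0.0510). Leaving out WT 2 gave 3.12-fold lower in *Tlr7* KO (adjusted p = 0.000603) and 4.65-fold lower in *Ifnar1* KO (adjusted p = 0.0117).

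*Zbtb46*, a transcription factor that sets conventional dendritic cells apart from other myeloid cells and is also made by endothelium, was at 1.27, 0.126 and 1.45 CPM in WT 1 to 3. It was at 0.383, 1.04, 0.608, 0.329 and 0.317 CPM in *Tlr7* KO 1 to 5 and at 0.510, 0.373 and 0.167 CPM in *Ifnar1* KO 1 to 3. WT 2, with 3 counts, was the lowest of all 11 mice, whereas WT 1 and WT 3 were the highest. Neither log2 fold change passed, -0.84 in *Tlr7* KO (SE 0.63, adjusted p = 0.332) and -1.46 in *Ifnar1* KO (SE 0.79, adjusted p = 0.219). Both passed without WT 2, at 2.52-fold (adjusted p = 0.0301) and 3.87-fold lower (adjusted p = 0.0183).

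**Figure D3:**
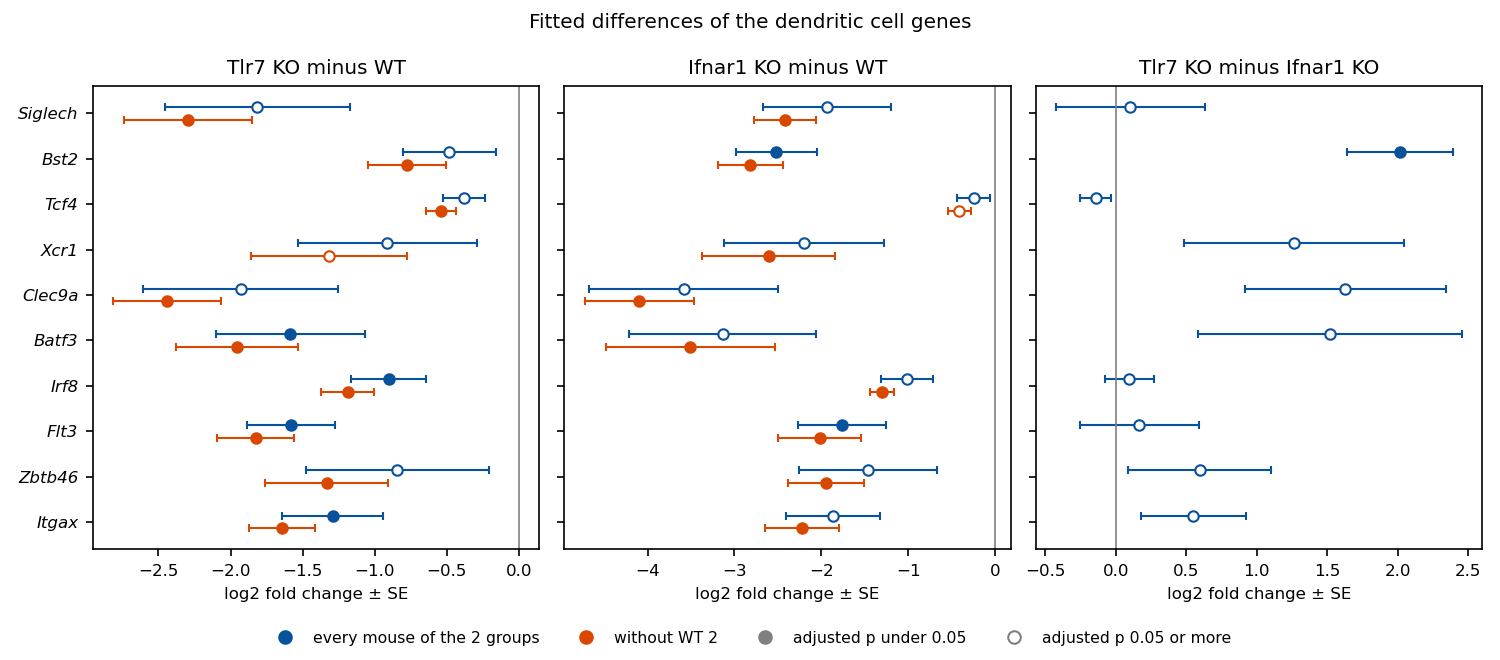
Log2 fold change of each member with its SE (horizontal axis, which differs in range between panels) in the 3 comparisons, with every mouse (blue) and without WT 2 (orange); filled points passed at an adjusted p under 0.05. Every estimate against WT is below 0 and leaving out WT 2 moves each of them further down, while between the knockouts *Bst2* is the single filled point, at 2.02.

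Over the list, the median log2 fold change of the members in *Tlr7* KO against WT was -1.10, beside -0.037 over all genes tested, and -1.49 beside -0.031 without WT 2. In *Ifnar1* KO it was -1.90 beside -0.017, and -2.32 beside -0.017 without WT 2. At an unadjusted p under 0.05, 7 members were lower in *Tlr7* KO, beside 24.2% of all genes, and 8 in *Ifnar1* KO, beside 21.8%. The WT range lay wholly above the *Ifnar1* KO range for 3 members (*Bst2*, *Flt3* and, by library scaling alone, *Batf3*), where 41.8% of all genes had groups that did not overlap. These comparisons share the 3 WT mice. Within groups, *Tlr7* KO 2 was the highest mouse for 8 of the 10 members and for 23.9% of all genes, *Ifnar1* KO 2 the highest of its group for 8 and for 34.1%, and *Ifnar1* KO 3 the lowest for 8 and for 37.6%. The same mice led and trailed for *Ptprc*, at 19.7 CPM in *Tlr7* KO 2, 8.55 in *Ifnar1* KO 2 and 1.47 in *Ifnar1* KO 3.

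The direct comparison of the knockouts asked whether the dendritic cell genes depend differently on TLR7 and on IFNAR. *Bst2* was higher in *Tlr7* KO than in *Ifnar1* KO, with a log2 fold change of 2.02 (SE 0.38, adjusted p = 0.0303), and all 5 *Tlr7* KO mice (7.91 to 17.0 CPM) were above all 3 *Ifnar1* KO mice (1.67 to 4.44 CPM). *Clec9a* had no overlap between the knockouts only by library scaling, since *Tlr7* KO 3 and *Ifnar1* KO 1 and 2 each had 3 counts, and in the second count table the groups overlapped. It had a log2 fold change of 1.63 (SE 0.71, adjusted p = 0.296 in edgeR), which passed at 0.05 only before adjustment. Of all genes, 10.7% did not overlap in this comparison. The remaining 8 members had adjusted p values of 0.449 to 0.944. Their 95% intervals set how large a difference these mice could have hidden, from -0.29 to 0.48 on the log2 scale for *Irf8* and -0.39 to 0.10 for *Tcf4*, but from -1.07 to 1.27 for *Siglech*, -0.78 to 1.11 for *Flt3*, -0.28 to 1.38 for *Itgax*, -0.53 to 1.72 for *Zbtb46*, -0.47 to 2.99 for *Xcr1* and -0.56 to 3.6 for *Batf3*. The *Bst2* call was lost without *Ifnar1* KO 1 (adjusted p = 0.123), *Ifnar1* KO 3 (0.113), or *Tlr7* KO 1, 3 or 5 (0.0542 to 0.0727), and with all 11 mice in 1 fit (0.0549), while its log2 fold change stayed between 1.78 and 2.61 in all alternatives tried.

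*Bst2* was set beside a list of 12 interferon-stimulated genes that are not members, such as *Irf7*, which encodes the factor that amplifies interferon production. All 12 passed as lower in *Ifnar1* KO than in WT, where 12.4% of all genes did, with a median log2 fold change of -3.27. The median of the list was -0.65 in *Tlr7* KO, and -0.99 without WT 2. *Irf7* had a log2 fold change of -0.39 in *Tlr7* KO (SE 0.42, adjusted p = 0.499) and -4.09 in *Ifnar1* KO (SE 0.55, adjusted p = 0.0207), and -0.75 (adjusted p = 0.120) and -4.44 (adjusted p = 0.00263) without WT 2. Its *Ifnar1* KO call was lost without WT 1, *Ifnar1* KO 1 or *Ifnar1* KO 3 (adjusted p 0.0583 to 0.0799). Between the knockouts 10 of the 12 passed as higher in *Tlr7* KO, where 0.926% of all genes did, with a median of 3.04. The summed level of the list was 292, 86.1 and 279 CPM in WT 1 to 3, 79.5, 216, 86.6, 72.9 and 131 CPM in *Tlr7* KO 1 to 5, and 19, 44.1 and 10.9 CPM in *Ifnar1* KO 1 to 3. *Bst2* and the list thus ranked the mice in nearly the same way, with *Tlr7* KO 2 and 5 high, WT 2 among the other *Tlr7* KO mice and all *Ifnar1* KO mice lowest. The other 9 members summed to 22.6 to 29.9 CPM in *Ifnar1* KO and 23.2 to 35.1 CPM in *Tlr7* KO, ranges that overlapped, with 79.6% to 92.4% of each sum from *Irf8* and *Tcf4*. Among 11399 genes whose mean was 1 CPM or more, those whose log2 CPM over the 11 mice, each centred on its own mean, lay closest to *Bst2* were *Parp10*, *Parp9* and *Fcgr1*, at mean absolute distances of 0.203, 0.208 and 0.209.

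**Figure D4:**
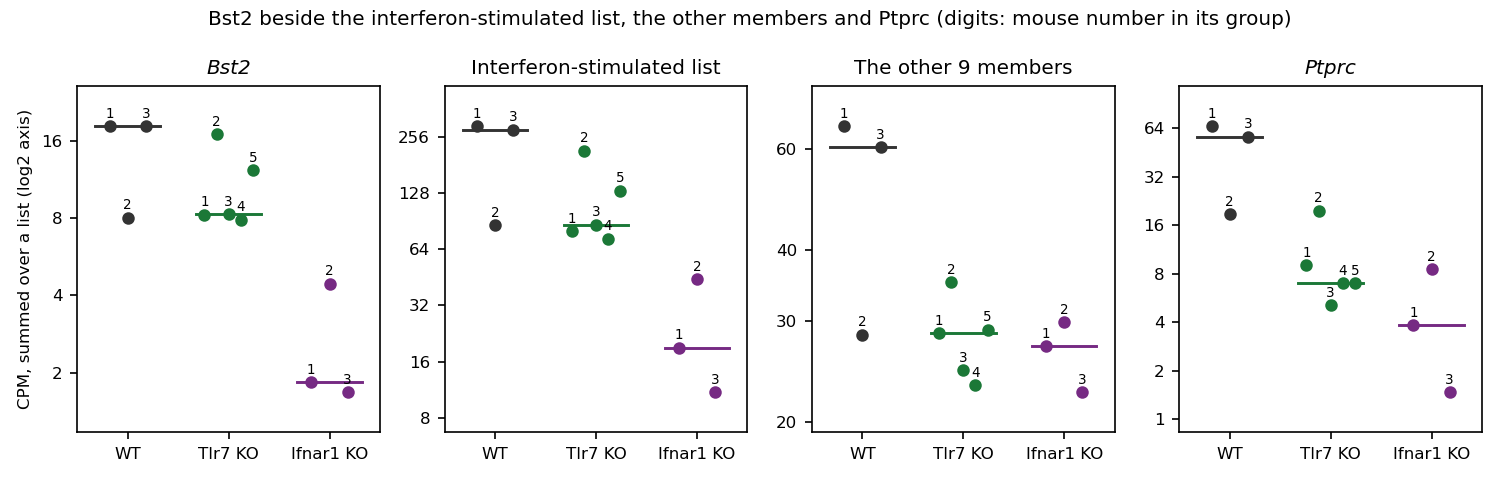
CPM of *Bst2*, summed CPM of the 12 interferon-stimulated genes, summed CPM of the other 9 members, and CPM of *Ptprc* (vertical axes, log2) in each mouse, with the mouse number beside each point and lines at group medians. The *Ifnar1* KO mice lie below all *Tlr7* KO mice for *Bst2* and for the interferon-stimulated list, and overlap them in the other panels.

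By the same distance, the genes closest to *Siglech* were *Gm20605*, *Icosl* and *AI467606*, at 0.351, 0.353 and 0.367, and those closest to *Xcr1* were *Havcr2*, *Gpr132* and *Slamf9*, at 0.251, 0.292 and 0.298. *Havcr2* encodes TIM-3, a receptor found on dendritic cells and exhausted T cells, and *Icosl* encodes the ligand of the T cell costimulator ICOS. These distances are over 11 mice and describe likeness of levels only.

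*Ptprc*, which all leukocytes carry, was 4.97-fold lower in *Tlr7* KO (log2 fold change -2.31, SE 0.47, adjusted p = 0.00684) and 10.4-fold lower in *Ifnar1* KO (log2 fold change -3.38, SE 0.67, adjusted p = 0.0235), and 6.45-fold and 13.6-fold lower without WT 2. The *Ifnar1* KO call of *Ptprc* was lost when WT 1, WT 3 or either of *Ifnar1* KO 1 and 3 was left out (adjusted p 0.0695 to 0.0891). The members were therefore also tested per *Ptprc* transcript, with library sizes set in proportion to the *Ptprc* count. On this scale no member passed as lower in either knockout, and 5 passed as higher in each. In *Tlr7* KO these were *Bst2*, *Tcf4*, *Xcr1*, *Irf8* and *Zbtb46*, with log2 fold changes of 1.49 to 1.97, and in *Ifnar1* KO they were *Siglech*, *Tcf4*, *Irf8*, *Flt3* and *Zbtb46*, with 1.81 to 3.55. That scale moves nearly every gene, however, and 85.1% of all genes passed in *Tlr7* KO (84.8% as higher) and 90.1% in *Ifnar1* KO (89.7% as higher). Without WT 2, 3 members passed as higher in *Tlr7* KO and 4 in *Ifnar1* KO, and without WT 1 or WT 3 none did in either knockout. The members' median was 1.33 beside 2.15 over all genes in *Tlr7* KO and 1.74 beside 3.62 in *Ifnar1* KO. Per *Ptprc* transcript, *Clec9a* had a log2 fold change of -0.063 in *Ifnar1* KO (95% interval -1.91 to 1.79) and *Batf3* -0.062 (-2.03 to 1.91). Between the knockouts, 0 members passed in edgeR's test per *Ptprc* transcript, where 1.46% of all genes passed, 1 member had an unadjusted p under 0.05 (*Tcf4*, log2 fold change -1.58, SE 0.71), beside 54.2% of all genes, and *Bst2* had a log2 fold change of 0.84 (SE 0.75, adjusted p = 0.300). With the replicate number as a block, 5 members passed between the knockouts per *Ptprc* transcript, where 12259 genes passed in all. Whether replicate numbers pair the knockout mice is not settled, as described further on. The *Ptprc* counts behind this scale ranged from 35 in *Ifnar1* KO 3 to 2082 in WT 3.

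Further genes of the same cells were read from lists of which no gene was a member. Of all genes tested, 17.4% passed as lower in *Tlr7* KO and 12.4% in *Ifnar1* KO. Without WT 2 these shares were 24.9% and 20.2%. The counts of each list have to be read beside them. Of 8 other plasmacytoid genes tested, 4 were lower in *Tlr7* KO and 5 in *Ifnar1* KO. *Spib*, a transcription factor of plasmacytoid dendritic cells and B cells, was at 6.83 to 26.3 CPM in WT, 0.494 to 4.87 in *Tlr7* KO and 0.0419 to 2.47 in *Ifnar1* KO (log2 fold changes -3.37 and -4.14, adjusted p = 0.00456 and 0.0256). *Lair1*, an inhibitory collagen receptor, had log2 fold changes of -1.29 and -2.74 (adjusted p = 0.0249 and 0.0225). Of 8 other conventional type 1 genes, 2 were lower in *Tlr7* KO and 1 in *Ifnar1* KO. *Wdfy4*, which is needed for cross-presentation and is also made by B cells, was at 6.83 to 22.9 CPM in WT, 1.82 to 5.91 in *Tlr7* KO and 1.0 to 2.43 in *Ifnar1* KO (log2 fold changes -2.33 and -3.28, adjusted p = 0.00436 and 0.0210). *Cadm1*, an adhesion molecule, passed in *Tlr7* KO at -0.83 (adjusted p = 0.00943) and had -0.82 in *Ifnar1* KO (adjusted p = 0.106). Without WT 2 the count of other conventional type 1 genes that passed as lower rose to 7 in *Tlr7* KO and 5 in *Ifnar1* KO, while that of the other plasmacytoid genes was 4 in each. *Spib* (-3.78 and -4.54), *Lair1* (-1.56 and -3.0) and *Wdfy4* (-2.70 and -3.65) passed in both knockouts without WT 2, and *Cadm1* passed in *Tlr7* KO (-0.98) and not in *Ifnar1* KO (-0.97, adjusted p = 0.0598). Leaving out WT 1, WT 3, *Ifnar1* KO 1 or *Ifnar1* KO 3 instead lost the *Ifnar1* KO calls of *Spib*, *Lair1* and *Wdfy4* (adjusted p 0.0575 to 0.0966). In *Tlr7* KO the call of *Lair1* was lost without WT 1 (adjusted p = 0.0820), WT 3 (0.103), or *Tlr7* KO 1, 3 or 4 (0.0555 to 0.0596), and those of *Spib*, *Wdfy4* and *Cadm1* held with any single mouse left out.

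Type 2 conventional dendritic cells present antigen to CD4 T cells. Of 7 of their genes, 3 were lower in *Tlr7* KO and 1 in *Ifnar1* KO, or 4 in each without WT 2. The shares of all genes were 17.4% and 12.4%, or 24.9% and 20.2% without WT 2. *Cd209a* (log2 fold changes 0.28 and 0.66), *Mgl2* (-0.24 and 0.14) and *Klf4* (-0.064 and -0.056) did not pass, with or without WT 2. *Irf4*, a transcription factor of these cells and of activated lymphocytes, passed as lower in *Tlr7* KO (log2 fold change -1.45, adjusted p = 0.0157) and stood at -1.34 in *Ifnar1* KO (adjusted p = 0.112), and *Sirpa*, a receptor for CD47, had -0.94 and -1.82 (adjusted p = 0.0189 and 0.0360). Of 9 genes of mature dendritic cells, 7 were lower in *Tlr7* KO and 4 in *Ifnar1* KO, or 8 and 7 without WT 2. *Il12b*, which encodes a chain of IL-12 and IL-23, was at 0.0422 CPM in the lowest WT mouse and 0.786 and 0.902 in the others, and at 0.0759 to 0.158 in *Tlr7* KO and 0.0747 to 0.126 in *Ifnar1* KO (log2 fold changes -2.38 and -2.53, adjusted p = 0.0313 and 0.0955). Its knockout mice had 2 or 3 counts each, so it too was tested through its WT counts, and filterByExpr left it out. *Il4i1*, an amino acid oxidase of mature dendritic cells, was lower in both knockouts (-2.34 and -3.09, adjusted p = 0.00889 and 0.0269), and so was *Relb*, an NF-kB subunit (-0.69 and -1.19, adjusted p = 0.0287 and 0.0284). Without WT 2 these 5 genes passed in both knockouts, at -1.84 and -1.73 for *Irf4*, -1.25 and -2.13 for *Sirpa*, -2.89 and -3.05 for *Il12b*, -2.76 and -3.51 for *Il4i1*, and -0.86 and -1.37 for *Relb*. The *Ifnar1* KO calls of *Sirpa*, *Il4i1* and *Relb* were lost when WT 1, WT 3 or either of *Ifnar1* KO 1 and 3 was left out (adjusted p 0.0782 to 0.123). In *Tlr7* KO those of *Irf4* and *Sirpa* were lost without WT 1 or WT 3 (0.0570 to 0.0879), that of *Relb* without WT 1, WT 3 or *Tlr7* KO 1, 3, 4 or 5 (0.0591 to 0.130), and that of *Il12b* without any mouse other than WT 2 (0.0509 to 0.135), whereas *Il4i1* kept its call.

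Among 8 factors that guide dendritic cell development, 6 were lower in *Tlr7* KO and 5 in *Ifnar1* KO, or 7 and 6 without WT 2. The shares of all genes were 17.4% and 12.4%, or 24.9% and 20.2% without WT 2. *Bcl11a*, a factor of plasmacytoid dendritic cells and B cells, was at 2.40 to 7.04 CPM in WT, 0.380 to 1.65 in *Tlr7* KO and 0.419 to 0.784 in *Ifnar1* KO, with no overlap between WT and either knockout (log2 fold changes -2.75 and -3.17, adjusted p = 0.00364 and 0.0207). *Spi1*, which encodes PU.1, was lower in both (-1.30 and -2.47, adjusted p = 0.00705 and 0.0260), and *Zeb2* was lower in *Ifnar1* KO (-1.48, adjusted p = 0.0354) and at -0.54 in *Tlr7* KO (adjusted p = 0.0875). Without WT 2 all 3 passed in both, at -3.08 and -3.50 for *Bcl11a*, -1.58 and -2.75 for *Spi1*, and -0.78 and -1.72 for *Zeb2*. The *Ifnar1* KO calls of *Bcl11a*, *Spi1* and *Zeb2* were lost when WT 1, WT 3 or either of *Ifnar1* KO 1 and 3 was left out (adjusted p 0.0568 to 0.118), and the *Tlr7* KO calls of *Bcl11a* and *Spi1* held with any single mouse left out. *Id2*, another of the 8 factors, did not pass against WT, at 0.50 in *Tlr7* KO and -0.34 in *Ifnar1* KO (adjusted p = 0.113 and 0.519). Between the knockouts it was at 0.81 (adjusted p = 0.0569). No gene of these dendritic cell lists passed between the knockouts at the adjusted threshold.

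For the ligands of the members, *Xcl1*, the ligand of XCR1, was at 0.211 to 1.67 CPM in WT, 0.153 to 0.348 in *Tlr7* KO and 0 to 0.373 in *Ifnar1* KO (log2 fold changes -2.18 and -2.77, adjusted p = 0.0182 and 0.0924), from at most 10 counts in a knockout mouse, and filterByExpr left it out in *Tlr7* KO. *Csf2rb*, which encodes the common beta chain of the receptors for GM-CSF, IL-3 and IL-5, was lower in both (-1.52 and -1.78, adjusted p = 0.00762 and 0.0412). Without WT 2 both passed in each knockout, at -2.65 and -3.24 for *Xcl1* and -1.84 and -2.10 for *Csf2rb*. Of the 3 genes tested in this list, *Csf2ra* did not pass with all mice (-0.18 and -0.49, adjusted p = 0.603 and 0.306). It passed as lower in each knockout without WT 2. The call of *Xcl1* in *Tlr7* KO was lost without WT 1 or WT 3 (adjusted p = 0.0643 and 0.0899), and that of *Csf2rb* in *Ifnar1* KO when WT 1, WT 3 or either of *Ifnar1* KO 1 and 3 was left out (0.114 to 0.132). *Flt3l*, the ligand of FLT3, was read from the second count table, where it had 29, 0 and 31 counts in WT 1 to 3, 2, 6, 1, 4 and 0 in *Tlr7* KO 1 to 5, and 5, 7 and 2 in *Ifnar1* KO 1 to 3. WT 2 thus had no count of the ligand while its *Flt3* was above all *Tlr7* KO mice. The interferons themselves were not detected at this depth. Of 16 type I interferon genes searched, 14 were listed in the second table and all 14 were at 0 counts in all 11 mice, where each library held 12233586 to 16621073 counts.

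Markers of other leukocytes moved with the members. The counts below stand beside shares of all genes that passed as lower, 17.4% in *Tlr7* KO and 12.4% in *Ifnar1* KO. Without WT 2 these shares were 24.9% and 20.2%. All 10 B cell genes were lower in each knockout, from summed levels of 88.8 to 308 CPM in WT to 6.76 to 56.1 in *Tlr7* KO and 2.72 to 22.2 in *Ifnar1* KO. Of 10 T cell genes 7 were lower in each, from 25.2 to 76.2 CPM to 6.34 to 31.6 and 1.72 to 15.4. Of 10 macrophage genes 4 were lower and 1 higher in *Tlr7* KO, and 5 lower and 1 higher in *Ifnar1* KO, with sums of 153 to 271 CPM in WT, 98.0 to 140 in *Tlr7* KO and 49.2 to 98.5 in *Ifnar1* KO. Of 7 natural killer genes, 4 and 7 were lower, from 4.01 to 8.66 CPM to 1.94 to 3.64 and 0.335 to 1.23. Endothelial genes (2 of 9 lower in each knockout and 1 higher in *Tlr7* KO) summed to 35.2 to 46.9 CPM in WT, 29.1 to 44.2 in *Tlr7* KO and 22.4 to 38.4 in *Ifnar1* KO. Fibroblast genes (2 of 7 lower in each) summed to 76.1 to 171, 94.6 to 167 and 84.5 to 118 CPM. The 10 gland epithelial genes summed to 1041 to 1259 CPM in WT and to 1430 to 1671 CPM in the knockouts, with 2 lower and 3 higher in *Tlr7* KO and 2 lower and 1 higher in *Ifnar1* KO. No marker of these lists was at 0 in all mice of a genotype. Without WT 2 the genes called lower in *Tlr7* KO and *Ifnar1* KO were 10 and 10 for B cells, 9 and 10 for T cells, 7 and 7 for macrophages (1 higher in each), 6 and 7 for natural killer cells, 3 and 3 for endothelium, 3 and 5 for fibroblasts, and 2 and 2 for gland epithelium (4 and 2 higher). Leaving out *Ifnar1* KO 1 or 3 instead left 0 genes of the whole series passing in *Ifnar1* KO, so these lists had 0 calls there. Without WT 1 or WT 3, 13 and 121 genes passed in *Ifnar1* KO, and 2726 and 2600 in *Tlr7* KO. Counts per list are not given for these fits. The part of the other cell types in the levels of *Irf8*, *Itgax*, *Tcf4*, *Zbtb46* and *Bst2*, which they also express, was not tested.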

How the data were processed

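RNA-seq of whole lacrimal glands was analysed in 3 WT, 5 *Tlr7* KO and 3 *Ifnar1* KO male NOD mice, as separate mice per genotype. Per the study's methods, the authors quantified transcripts with salmon 0.9.1 within bcbio 1.0.8 and summed them to genes of the mouse. The deposited main table holds these estimated counts, rounded to whole numbers by the authors. Though named as normalized, it has column totals that differ between libraries and was treated as unscaled. Another deposited table (the second count table) holds counts for 39017 genes from HISAT2 2.1.0 alignments, and its counter is not given in the sources used here. In that table, 1 column belonged to no sample and was not used.

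R 4.3.3 was used with edgeR 4.0.16. Each pair of genotypes was fitted on its own by the quasi-likelihood method of edgeR after TMM scaling, over the genes with 30 or more counts in the WT mice combined. P values are two-sided and adjusted over all genes tested (Benjamini-Hochberg), and 0.05 was the threshold. Log2 fold changes are knockout minus WT, or *Tlr7* KO minus *Ifnar1* KO. CPM use the TMM factors. Per-*Ptprc* tests replace TMM by the *Ptprc* count, with *Ptprc* left out. Log2 CPM for distances used a prior count of 2. Exon lengths are from GENCODE M21. The fitting was tested on simulated data.

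The members and lists were chosen with earlier results of these data known. Genes were named by rule, and 1 gene the rule names is not reported here. It takes all members, *Tlr7*, *Ifnar1* and *Ptprc*, from each further dendritic cell list the called genes with the largest and smallest change against WT and any called between the knockouts, from each other list the 2 genes highest in WT (otherwise given as sums over the list), and the 3 genes most like *Siglech*, *Xcr1* and *Bst2*. Alternatives were DESeq2 1.42.0, RLE size factors, library size alone, other gene filters, the second table, 1 fit of all mice, the replicate number as a block, and each mouse left out.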

Additional observations from a re-analysis of the deposited data

Results flagged for a closer look

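In the 5 *Tlr7* KO mice, 1 mouse lay far from the others by Dixon's criterion for 6 of the 43 genes named by rule. Chance gives about 1 in 20 for a single gene. Since 5 of the 6 were high in the same mouse, the genes are not independent and the count cannot be set against that rate. For *Xcr1* this was *Tlr7* KO 4, at 0.535 CPM against 0.106 to 0.217 in the other *Tlr7* KO mice. The remaining 5 genes were highest in *Tlr7* KO 2, in which *Ptprc* was at 19.7 CPM (next highest 9.03), *Sirpa* at 15.5 (13.1), *Bcl11a* at 1.65 (0.650), the B cell gene *Cd79a* at 16.7 (6.31) and the T cell gene *Lck* at 7.0 (2.49). This mouse was also the highest of its group for 8 of the 10 members.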

How the results depend on the processing

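All 10 members had estimates below 0 against WT in both knockouts in every alternative that tested them. Calls depended on the mice and the scaling. In *Tlr7* KO 4 members and 4564 genes in all passed, 8 and 4398 with library size alone, 0 and 14 with a replicate block, and 1 to 9 members with 1 mouse left out (1 and 2726 without WT 1, 9 and 6663 without WT 2, 1 and 2600 without WT 3). In *Ifnar1* KO 2 members and 2677 genes passed, 6 members with DESeq2 or all 11 mice in 1 fit, 4 with filterByExpr (of 7 tested), no gene filter or the second table, 1 with RLE size factors or library size alone, 0 with a replicate block (0 genes in all) and 0 to 9 with 1 mouse left out (0 members and 13 genes without WT 1, 9 and 4666 without WT 2, 0 and 121 without WT 3, 0 and 0 without *Ifnar1* KO 1 or 3). Between the knockouts 1 passed, 0 with all 11 mice in 1 fit and 0 to 1 with 1 mouse left out. Per *Ptprc* transcript, 5, 5 and 0 passed in *Tlr7* KO, in *Ifnar1* KO and between the knockouts, 0, 0 and 5 with a replicate block (0, 0 and 12259 genes in all), 3 in *Ifnar1* KO with no gene filter, and 0 to 6, 0 to 6 and 0 to 2 with 1 mouse left out.

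Against WT, replicate numbers did not pair the mice, since same-numbered mice deviated together at r of -0.44 to 0.030. Between the knockouts, same-numbered mice did so at r of 0.064 to 0.34. Each *Ifnar1* KO mouse correlated best with the *Tlr7* KO mouse of its own number (highest r with another number 0.021 to 0.068). The reverse was not computed. Such likeness is a hint from the data and not the design, and whether the numbers pair the knockout mice is not settled.

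Library size alone moved the median of all genes to -0.54 in *Tlr7* KO, -0.31 in *Ifnar1* KO and -0.19 between the knockouts, and the lower share of called genes from 53.2% to 97.2%, from 64.8% to 96.2% and from 48.4% to 69.4%. Some directions turned. Between the knockouts, library size alone gave log2 fold changes of -0.098 for *Siglech*, -0.11 for *Irf8* and -0.089 for *Ifnar1*, and leaving out 1 mouse gave -0.24 to 0.31 for *Siglech*, -0.017 to 0.21 for *Irf8* and -0.19 to 0.80 for *Flt3*. *Krt8*, a gland epithelial gene that passed as higher in *Tlr7* KO at 0.45, turned to -0.038 with library size alone. Per *Ptprc* transcript in *Ifnar1* KO, *Clec9a* turned to 0.26 with a replicate block and ranged over -0.67 to 0.22 with 1 mouse left out, and *Batf3* over -6.46 to 0.47, the lowest being without *Ifnar1* KO 2, which leaves that group at 0 counts. Per *Ptprc* transcript between the knockouts, *Xcr1* turned to -0.30 with a replicate block and ranged over -0.18 to 1.13. The cause was not tested. Depth limits *Xcr1*, *Clec9a* and *Batf3*, which had under 50 counts in each mouse.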
